A study of Mus musculus with 42 samples.

Results

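The genes described here are 10 genes of the endothelial cells that line brain capillaries and form the blood-brain barrier: Mfsd2a, Slc2a1, Cldn5, Flt1, Pecam1, Slco1a4, Abcb1a, Ly6c1, Itm2a and Tek. They were the rows of the deposited expression table whose Ensembl identifiers map to these symbols, 10 of 37907 genes, and the list was chosen by a measured value, the rise of Mfsd2a with fasting in the ventromedial hypothalamus (VMH). Expression was measured by RNA-seq of hypothalamic nuclei cut out by laser capture, in adult C57/BL6 males of wild-type genotype. These animals had free access to food (fed) or had been without food for 24 hours (fasted). The arcuate nucleus (ARC) gave 5 fed and 5 fasted libraries, the VMH 6 and 6, the dorsomedial hypothalamus (DMH) 5 and 4, and the paraventricular nucleus (PVN) 6 and 5. The nuclei were captured from the same brains, but which libraries share a mouse was not given, so the libraries were treated as independent. If libraries of a mouse vary together, P values that combine nuclei would be too small and those that compare nuclei inexact, which could not be tested.

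The capillary wall of the brain is sealed by tight junctions, has very little transcytosis, and takes up nutrients through carriers. Mfsd2a carries lysophosphatidylcholine with omega-3 fatty acids such as docosahexaenoic acid into the brain and restrains transcytosis in the endothelium. Slc2a1 is the glucose transporter GLUT1 of the barrier, and is found in astrocytes as well. Slco1a4 carries organic anions, and Abcb1a (P-glycoprotein) pumps drugs and other lipophilic compounds back into the blood. Cldn5 is the claudin of the tight junction and Pecam1 an adhesion molecule at endothelial contacts. Flt1 and Tek are the receptors for VEGF family ligands and for angiopoietins. Ly6c1 is a surface antigen and Itm2a a membrane protein, both used as markers of the endothelium.

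All 10 genes were above the level of a gene with no reads in all 42 libraries, and all 10 passed the filter of at least 1 RPKM (reads per kilobase of exon, relative to library depth) in at least 4 libraries. The estimated number of reads behind each gene in the median library ran from 32.3 for Cldn5 and 38.8 for Tek to 335 for Flt1 and 492 for Slc2a1, with 84.2 for Mfsd2a. In the library where it was lowest, Tek rested on 1.36 reads and Cldn5 on 2.69, so single values of these genes are imprecise. Of the 50-base stretches of Ly6c1, 32.8% recur in Ly6c2 or other transcripts, and of those of Abcb1a 22.5% recur in Abcb1b or others. Exons of Gm42686 overlap 10.1% of the exon length of Abcb1a, and the reads carry no strand. The levels of Ly6c1 and Abcb1a are therefore uncertain. The libraries had an estimated mean depth of 4.57 M reads, from 1.33 to 13.2 M, and the fasted DMH libraries (7.38 ± 4.003 M, SD, n = 4) were deeper than the fed ones (3.91 ± 0.862 M, n = 5; two-sided exact permutation P = 0.0476). Depth and nutritional state are thus partly confounded in the DMH.

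Mfsd2a (chr4:122946850-122961188 of GRCm38, minus strand) and Slc2a1 (chr4:119108711-119137983, plus strand) are protein-coding genes on chromosome 4, and they are the pair of genes whose levels went up with fasting below. The RefSeq bases just upstream of the annotated start of each are shown because they are the sequences next to those starts. They were read 5′ to 3′ on the strand of the gene, from chr4:122961189-122961438 for Mfsd2a and from chr4:119108495-119108710 for Slc2a1 of GRCm38.p6, and capitals mark every match, on either strand, to the hypoxia response core ACGTG or the GC box GGGCGG.
Mfsd2a: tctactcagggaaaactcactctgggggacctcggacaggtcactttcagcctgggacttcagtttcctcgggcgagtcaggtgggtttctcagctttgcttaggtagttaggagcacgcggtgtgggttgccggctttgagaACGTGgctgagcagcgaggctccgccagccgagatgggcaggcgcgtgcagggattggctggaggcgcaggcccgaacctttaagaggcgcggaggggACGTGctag
Slc2a1: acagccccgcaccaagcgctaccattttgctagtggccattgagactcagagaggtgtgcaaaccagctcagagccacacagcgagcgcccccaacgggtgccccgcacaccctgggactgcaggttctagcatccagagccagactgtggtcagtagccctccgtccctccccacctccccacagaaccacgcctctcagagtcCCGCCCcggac
The Mfsd2a stretch held 2 matches to ACGTG and 0 to the GC box, and the Slc2a1 stretch 0 and 1. Over windows of 250 bases before to 50 after the start, ACGTG was found in 2 of the 9 genes that had a window and in 19.6% of 32851 windows of all genes, and the GC box in 4 of 9 and in 35.7%. The E-box CACGTG, which contains ACGTG, was found in 0 of 9 and 7.15% of all windows. The ETS core GGAA was found in 7 of 9 and 96.0% of all windows, and the TATA box TATAAA in 3 of 9 and 13.6%. A match is a run of letters and says nothing about binding.

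The first question was which of these genes changed with a 24-hour fast. Mfsd2a and Slc2a1 were higher in fasted than in fed mice on average over the ARC, DMH and PVN, and the other 8 genes did not pass the test. The average fasting change over these nuclei was 0.78 for Mfsd2a (SE 0.18) and 0.72 for Slc2a1 (SE 0.10) on the log2(RPKM + 1) scale. The test was limma over 33579 genes, with an adjusted P under 0.1 as the threshold (adjusted P = 0.0743 and 0.000162). In that test 0.214% of all genes passed, and 0.125% of all genes passed with a higher level in fasted mice. The list was chosen by the VMH rise of Mfsd2a, and the nuclei were captured from the same brains. The P values of Mfsd2a in the ARC, DMH and PVN therefore cannot be taken as independent of that choice. The Mfsd2a change did not pass with a pseudocount of 0.1 (0.85, adjusted P = 0.108) or with the replicate number as a block (0.77, adjusted P = 0.130). The call for Slc2a1 held without any 1 of the 30 libraries. That for Mfsd2a was lost without any of 17: ARC fed 2, 3 and 4, ARC fasted 2 and 3, DMH fed 3 and 5, DMH fasted 1, 2 and 3, PVN fed 4, 5 and 6, and PVN fasted 2, 3, 4 and 5, where its change was 0.717 to 0.784 and its adjusted P 0.104 to 0.149.

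In the ARC the Mfsd2a level was 6.6, 5.5, 5.4, 5.1 and 7.3 RPKM in the 5 fed libraries and 8.4, 19.97, 14.6, 9.9 and 8.9 RPKM in the 5 fasted ones. The groups did not overlap, and the mean was 2.07 times higher with fasting, with 2 fasted libraries well above the other 3. The log2 change was 0.88 (SE 0.31), with an exact permutation P of 0.00794, the smallest this design allows, but it did not pass over all genes (limma adjusted P = 0.565). In the DMH the level was 8.5, 8.8, 3.7, 9.1 and 6.1 RPKM in fed mice and 16.7, 14.9, 17.4 and 12.8 RPKM in fasted mice. These groups did not overlap either, and the mean was 2.14 times higher. The log2 change was 1.05 (SE 0.33; exact permutation P = 0.0159, again the smallest possible; limma adjusted P = 0.449). In the PVN the level was 8.9, 10.9, 9.3, 7.4, 7.3 and 5.7 RPKM in fed mice and 4.4, 12.7, 16.8, 13.6 and 12.8 RPKM in fasted mice. Here 4 of 5 fasted libraries were above every fed library, and the other, fasted library 1, was below all of them. The log2 change was 0.42 (SE 0.30; exact permutation P = 0.195; limma adjusted P = 1), and 0.71 without that library.

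Because the VMH values of Mfsd2a led to this gene list, they are given as a description only. The level was 11.7, 5.1, 6.6, 1.6, 8.2 and 6.3 RPKM in fed mice and 11.9, 29.9, 17.8, 13.0, 12 and 13.9 RPKM in fasted mice. Every fasted library was above every fed one, by a narrow margin between fed library 1 and fasted library 1. The means differed 2.49-fold and the log2 change was 1.27 (SE 0.28).

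**Figure D1:**
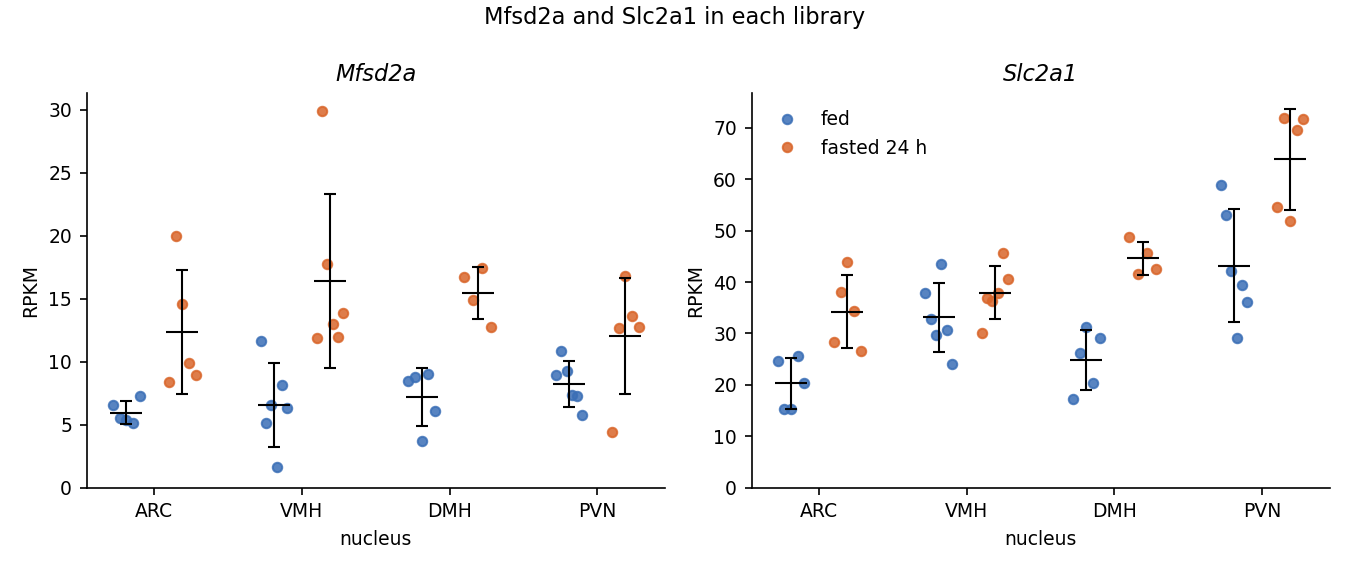
RPKM of Mfsd2a (left) and Slc2a1 (right) in each library of fed (blue) and 24-hour fasted (orange) mice by nucleus; points are libraries and bars show the mean ± SD. For Mfsd2a the fasted libraries lie above all fed ones in the ARC, VMH and DMH, and 1 fasted PVN library lies at 4.4 RPKM, while for Slc2a1 the states separate in the ARC and DMH and the PVN is highest.

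Slc2a1 was the most abundant of the 10 genes in every nucleus. In the ARC it was at 24.6, 15.4, 15.4, 25.6 and 20.4 RPKM in fed mice and at 28.4, 38.1, 43.9, 34.3 and 26.5 RPKM in fasted mice, without overlap. The log2 change was 0.74 (SE 0.18; exact permutation P = 0.00794; limma adjusted P = 0.198). In the DMH the fed libraries lay at 17.3, 26.2, 31.2, 20.4 and 29.1 RPKM and the fasted ones at 48.8, 41.6, 45.6 and 42.5 RPKM, again without overlap. This change was 0.85 (SE 0.19; exact permutation P = 0.0159; limma adjusted P = 0.146), and it passed without DMH fed library 3 (0.93, adjusted P = 0.0891), fasted library 2 (0.88, 0.0847) or fasted library 4 (0.87, 0.0953). In the PVN the level was 58.9, 53.0, 42.1, 29.2, 39.5 and 36.2 RPKM in fed mice and 54.6, 71.8, 51.9, 69.6 and 71.6 RPKM in fasted mice, and the groups overlapped at 2 fed libraries. The change was 0.58 (SE 0.17; exact permutation P = 0.0216; limma adjusted P = 0.416). In the VMH fed values of 24.1 to 43.5 RPKM (median 31.7) and fasted values of 30.1 to 45.6 RPKM (median 37.4) overlapped over most of their range, with a log2 change of 0.20 (SE 0.16).

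In each nucleus on its own, 0 of the 10 genes passed the threshold in the ARC, DMH or PVN with limma, where 0.0566%, 0.0238% and 0.0715% of all genes passed. At an unadjusted P under 0.05, 2 genes were higher in fasted mice in the ARC, 2 in the DMH and 1 in the PVN, against 4.23%, 3.99% and 3% of all genes. None of the 10 was lower, where 1098, 834 and 848 of all 33579 genes were. With 10 genes, so low a share makes a count of 0 uninformative. Fed and fasted libraries did not overlap, with the fasted ones higher, for 2 of 10 genes in the ARC, 2 in the DMH and 0 in the PVN, namely Mfsd2a and Slc2a1, against 0.408%, 0.685% and 0.22% of all genes. In the VMH, which the choice of genes used, 1 of 10 passed (0.131% of all genes passed), a count fixed by that choice from which nothing is read. There Mfsd2a was higher without overlap (0.131% of all genes were) and Tek was lower without overlap (0.146%), with Tek at 2.0, 2.3, 2.3, 2.9, 3.1 and 2.8 RPKM in fed mice and 0.45, 1.8, 1.7, 1.3, 0.98 and 1.7 RPKM in fasted mice. No difference in fasting change among the ARC, DMH and PVN was detectable, as 0 of 10 genes passed that test (limma; 0.0119% of all genes) and 0 of 10 had an unadjusted P under 0.05 (4.15% of all genes).

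**Figure D2:**
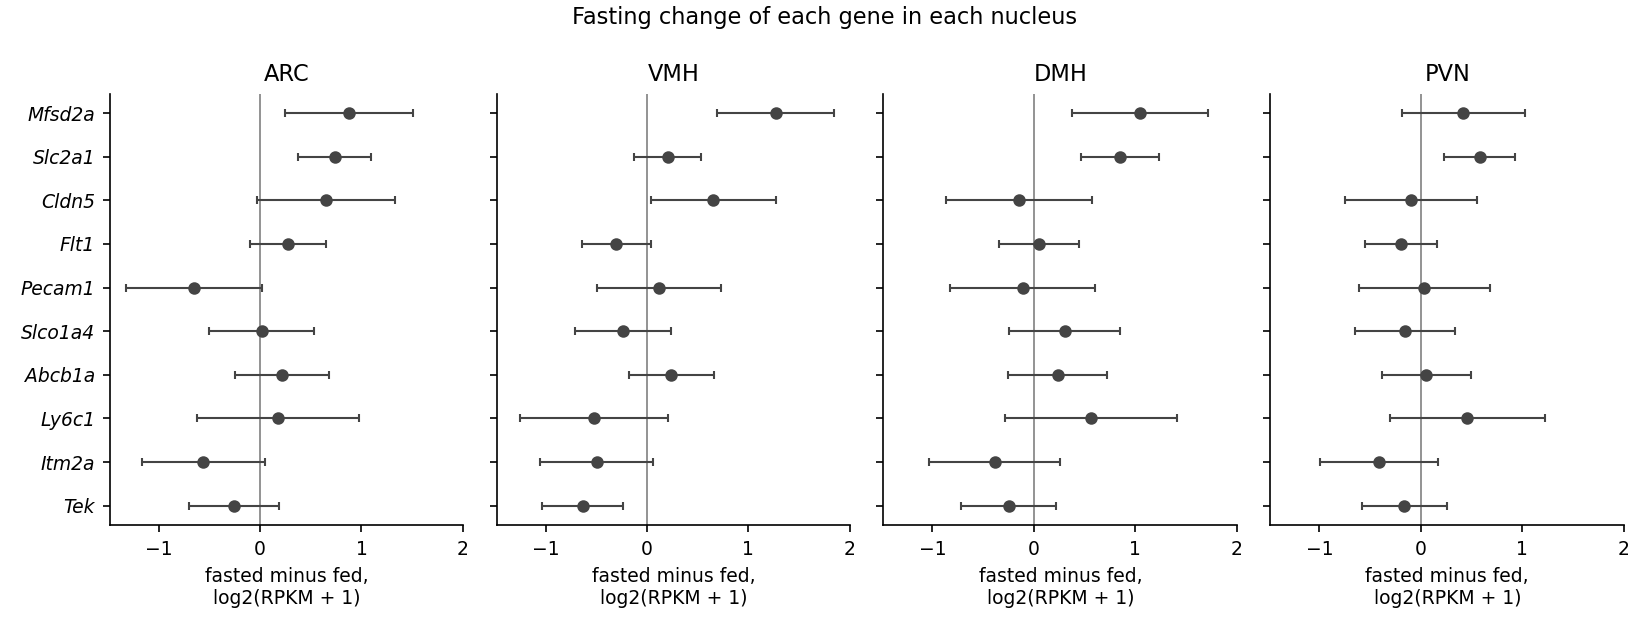
Fasting change of the 10 genes in each nucleus, as the difference of mean log2(RPKM + 1) between fasted and fed libraries; points are estimates and bars 95% confidence intervals from limma. Mfsd2a and Slc2a1 lie to the right of 0 in the ARC, DMH and PVN, with the PVN interval of Mfsd2a crossing 0. The intervals of the other genes cross 0, except in the VMH for Tek (-1.04 to -0.23) and Cldn5 (0.03 to 1.28). Itm2a and Tek lie to the left of 0 in every nucleus, and Abcb1a lies to the right in every nucleus.

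Each member of the other 8 was given by its average change over the ARC, DMH and PVN. Among the transporters, Abcb1a changed by 0.17 and Slco1a4 by 0.06. The junction genes Cldn5 and Pecam1 stood at 0.13 and -0.24, and the receptors Flt1 and Tek at 0.04 and -0.22. Of the surface markers, Ly6c1 was at 0.40 and Itm2a at -0.45. None passed the threshold, and the smallest limma adjusted P was 0.625, for Itm2a (unadjusted P = 0.0136). In single nuclei the exact permutation P was under 0.05 for Pecam1 in the ARC (-0.65, P = 0.0397), Itm2a in the PVN (-0.41, P = 0.0260) and Ly6c1 in the DMH (0.56, P = 0.0476), and over 0.05 in the other tests of these genes. Over the 10 genes and 3 nuclei 8 of 30 such tests were under 0.05, with no adjustment. The Itm2a means were lower in fasted mice in all 4 nuclei, for example 21.6 ± 4.47 RPKM in fed (n = 6) and 16.0 ± 2.90 RPKM in fasted (n = 5) PVN libraries. Intervals show what could be missed. The 95% interval of the average change was -0.17 to 0.26 for Flt1 and -0.24 to 0.36 for Slco1a4, which leaves out a rise of the size seen for Mfsd2a, whereas that for Ly6c1 reached 0.86. Over the 10 genes the median average change was 0.09, and over all genes tested it was 0.00.

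**Figure D3:**
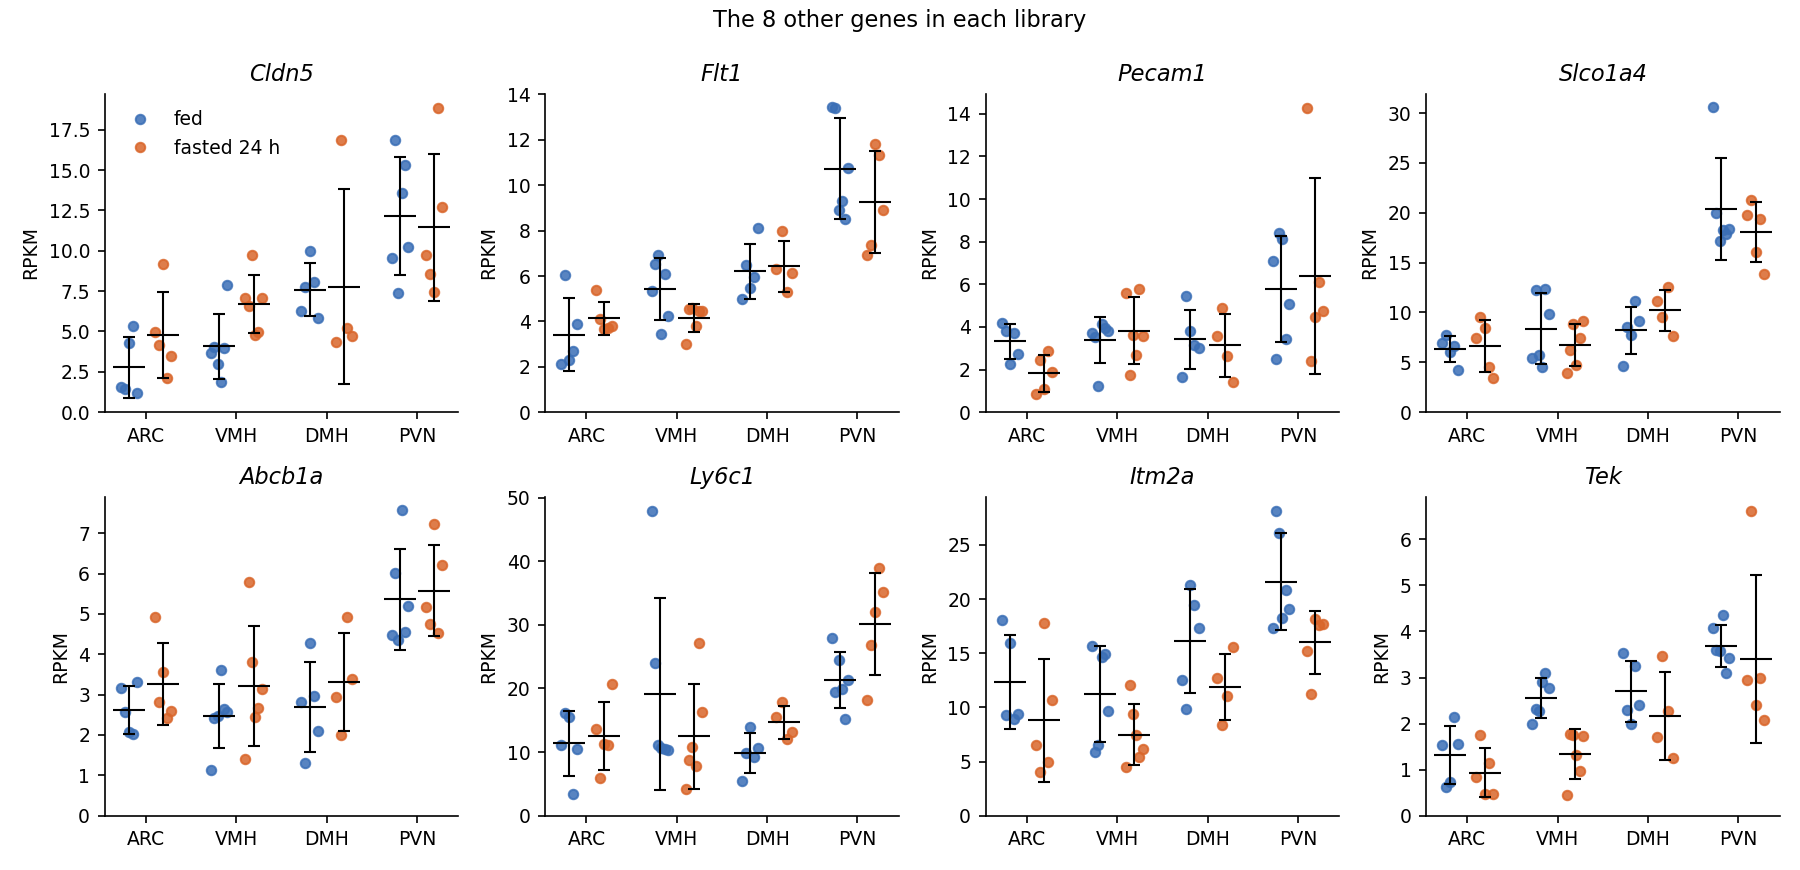
RPKM of the 8 other genes in each library of fed (blue) and 24-hour fasted (orange) mice by nucleus; points are libraries and bars show the mean ± SD. Fed and fasted libraries overlap in every panel except Tek in the VMH, and the PVN libraries are highest for most genes.

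In captured tissue, fewer endothelial cells and less RNA per cell cannot be told apart. Mfsd2a was also set against the other 9 genes within each library, to ask whether it changed relative to them. The log2 level of Mfsd2a minus the mean of the other 9 genes was 0.20 ± 0.21 in fed and 1.01 ± 0.47 in fasted ARC libraries (SD, n = 5 and 5), a difference of 0.81 (two-sided exact permutation P = 0.0159). In the DMH it was -0.01 ± 0.61 in fed (n = 5) and 0.91 ± 0.19 in fasted libraries (n = 4), a difference of 0.92 (exact permutation P = 0.0159). In both nuclei 4 fasted libraries lay above every fed library, out of 5 in the ARC and 4 in the DMH. In the PVN it was -0.53 ± 0.24 (n = 6) and -0.13 ± 0.67 (n = 5), a difference of 0.41 that was within the spread (exact permutation P = 0.208). Without fasted PVN library 1 the PVN difference was 0.69 (exact permutation P = 0.00952). In the VMH the same quantity, given as a description, was -0.15 ± 0.72 in fed and 1.22 ± 0.45 in fasted libraries (n = 6 and 6). The reference includes Slc2a1, which itself was higher with fasting.

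The libraries fell into 3 batches inferred from the values, so the changes were also read within each. In batches 2 and 3, Mfsd2a was higher in fasted libraries in every nucleus, by 1.49 and 0.55 (ARC), 1.86 and 0.77 (VMH), 1.31 and 0.91 (DMH), and 0.75 and 0.92 (PVN). In batch 1, which held 10 libraries and 0 fasted DMH libraries, they were 0.31 (ARC), 1.18 (VMH) and -1.004 (PVN), each on 1 or 2 libraries a state. Slc2a1 showed 1.35 and 0.38 (ARC), 0.64 and 0.83 (DMH) and 0.78 and 0.88 (PVN) in batches 2 and 3, and 0.20 in the ARC and -0.03 in the PVN in batch 1. Its VMH change was -0.08, 0.04 and 0.64 in batches 1, 2 and 3. In the PVN of batch 1 neither gene was higher in the fasted library. With limma fitted to 1 batch at a time, the average change of Mfsd2a over the ARC, DMH and PVN was 1.18 (adjusted P = 0.413) in batch 2 and 0.79 (adjusted P = 0.153) in batch 3, and passed in neither. That of Slc2a1 was 0.93 (adjusted P = 0.0477) in batch 2, where it passed, and 0.70 (adjusted P = 0.138) in batch 3, where it did not.

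The neighbouring genes of the pathways were read from fixed lists. Of 26 further genes of endothelial identity, such as Cdh5 and Kdr, 0 passed in any of the fasting tests, and their median average change over the ARC, DMH and PVN was -0.11, with 1 higher and 2 lower at an unadjusted P under 0.05. Of 21 other barrier transporters 0 passed (2 higher and 2 lower unadjusted), with Slc7a5, a carrier of large neutral amino acids, at the largest average change of 0.62 (limma adjusted P = 0.191). Among 13 tight and adherens junction genes, 8 caveolae and transcytosis genes, 12 angiogenic and barrier-inducing ligands, 20 of their receptors and targets and 14 mural cell genes, 0 passed in any fasting test (limma). For the average over the ARC, DMH and PVN, 1 junction gene was higher and 1 lower at an unadjusted P under 0.05. The ligand and receptor lists gave the same counts, and the caveolae and mural cell lists gave 0. Over all 33579 genes tested, 1152 were higher and 894 lower at that threshold. Among 19 genes of omega-3 lysolipid uptake and handling, 1 passed and was lower with fasting: Fabp7, a fatty acid binding protein of astrocytes and progenitors that binds docosahexaenoic acid. Its average change over the ARC, DMH and PVN was -0.94 (limma adjusted P = 0.00454), and its VMH change was -1.31. Of 11 astrocyte markers, Aqp4, the water channel of astrocyte endfeet, was lower in the fasted VMH (-0.94, limma adjusted P = 0.0477), while the summed level of the whole astrocyte list ranged from 535 to 787 RPKM in fed and from 547 to 641 RPKM in fasted VMH libraries. In the DMH the astrocyte sum was 510 to 617 RPKM in fed and 634 to 691 RPKM in fasted libraries, without overlap. Aldoc and Slc1a2, at means of 208 and 132 RPKM over all libraries, weigh most in this sum. There 3 of the 11 markers were higher and 0 lower at an unadjusted P under 0.05, against 3.99% higher over all genes. The median DMH change of the 11 was 0.01, with 6 above 0. On the average over the ARC, DMH and PVN, 4 of the 11 markers were higher and 1 lower at an unadjusted P under 0.05. The median of that average change was -0.04, with 5 of 11 above 0. In the ARC the sums were 423 to 475 RPKM in fed and 408 to 505 RPKM in fasted libraries, and in the PVN 454 to 534 and 458 to 556 RPKM, which overlapped. Slc2a1 is expressed in astrocytes too, and the part of astrocytes in the fasting changes of Mfsd2a and Slc2a1 was not tested. No blood, microglial, fibroblast or choroid plexus gene tested passed in a fasting test, and blood genes summed to 20.2 to 79.3 RPKM over all libraries, and their part in the fasting changes was not tested.

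The second question was how the genes differ between the nuclei. Of the 10 genes, 9 differed between the 4 nuclei and all 9 were highest in the PVN, while Mfsd2a did not pass. Each nucleus was taken as the mean of its fed and fasted groups. For Mfsd2a the test therefore rests in part on the VMH values that led to the gene list. In limma 18.7% of all genes passed this test, and 5.1% passed it and were highest in the PVN. The adjusted P ranged from 6.7e-09 for Flt1 to 0.0212 for Pecam1, and was 0.894 for Mfsd2a. The capillary bed of the PVN is known to be among the densest in the brain. Vessel density was not measured here, and its part in these levels was not tested. With fed groups alone 7 of the 10 passed (12.4% of all genes did), and with fasted groups alone 8 did (11.9%). Mfsd2a passed in neither (limma adjusted P = 0.848 and 0.734). Within batch 2 alone 3 of the 10 passed, and within batch 3 alone 6. The share over all genes is not given for these single-batch fits, so the counts have no baseline.

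Among the receptors, Flt1 was at 10.1 ± 2.25 RPKM in the PVN (n = 11), 6.31 ± 1.11 in the DMH (n = 9), 4.79 ± 1.21 in the VMH (n = 12) and 3.78 ± 1.24 in the ARC (n = 10). All 11 PVN libraries were above all ARC libraries, and neighbours in this order differed except the DMH from the VMH and the VMH from the ARC. Tek was at 3.56 ± 1.21 RPKM in the PVN, 2.47 ± 0.80 in the DMH, 1.95 ± 0.79 in the VMH and 1.13 ± 0.59 in the ARC, and of these neighbours only the VMH and ARC differed (limma adjusted P = 0.0312).

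Among the transporters, Slco1a4 was at 19.3 ± 4.26 RPKM in the PVN, 9.10 ± 2.35 in the DMH, 7.53 ± 2.93 in the VMH and 6.50 ± 1.96 in the ARC. Here too every PVN library was above every ARC library, and only the step from DMH to PVN differed between neighbours. Slc2a1 was at 52.6 ± 14.7 RPKM in the PVN, 35.5 ± 6.25 (VMH), 33.6 ± 11.4 (DMH) and 27.3 ± 9.34 (ARC), and the PVN differed from each of the others. Abcb1a was at 5.46 ± 1.14 RPKM in the PVN and between 2.84 and 2.97 RPKM in the other nuclei, which did not differ from each other beyond their spread. Over fed and fasted libraries together, Mfsd2a was at 11.5 ± 7.30 RPKM in the VMH, 10.9 ± 4.80 in the DMH, 9.98 ± 3.74 in the PVN and 9.17 ± 4.73 in the ARC, and no pair passed in limma. These SDs include the fasting difference, and the VMH values led to the gene list. In fed libraries alone Mfsd2a was at 8.25 ± 1.81 RPKM in the PVN, 7.23 ± 2.30 in the DMH, 6.58 ± 3.32 in the VMH and 5.98 ± 0.91 in the ARC. The PVN minus ARC difference of Mfsd2a had a 95% interval of -0.27 to 0.60 on the log2 scale, and those of the other 9 genes lay between 0.40 and 1.99.

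Of the junction genes, Cldn5 was at 11.8 ± 3.90 RPKM in the PVN, 7.68 ± 3.89 in the DMH, 5.38 ± 2.29 in the VMH and 3.78 ± 2.43 in the ARC, and Pecam1 at 6.06 ± 3.42 RPKM in the PVN and 2.58 ± 1.12 in the ARC, with the VMH and DMH between. For Pecam1 only the PVN and the ARC differed. The markers Ly6c1 (25.4 ± 7.53 RPKM in the PVN and 11.9 ± 4.95 in the ARC) and Itm2a (19.1 ± 4.69 and 10.6 ± 5.10) followed the same order at its top.

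The PVN minus ARC difference was 1.52 for Cldn5, 1.45 for Slco1a4, 1.22 for Flt1, 1.12 for Ly6c1, 1.10 for Tek, 0.97 for Slc2a1, 0.92 for Pecam1, 0.87 for Itm2a, 0.72 for Abcb1a and 0.16 for Mfsd2a on the log2(RPKM + 1) scale. By pairs of nuclei, 9 of 10 genes were higher in the PVN than in the ARC (3.8% of all genes were), 8 higher than in the VMH (7.89%) and 5 higher than in the DMH (3.07%). The DMH exceeded the ARC for 3 genes, Cldn5, Flt1 and Tek (3.05% of all genes), and the VMH exceeded the ARC for Slc2a1 and Tek (6.21%). Between the DMH and the VMH 0 of 10 passed in limma (7.77% of all genes did). Flt1 and Itm2a had an unadjusted limma P under 0.05 (0.00939 and 0.00881), a threshold at which the share over all genes is not given.

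Other vascular genes showed the same pattern, where 18.7% of all genes differed between nuclei and 5.1% also were highest in the PVN. Of the 26 further endothelial genes, 18 differed between nuclei and 17 of these were highest in the PVN, with a median PVN minus ARC difference of 0.72 against 0.00 over all genes. The largest was that of Icam2, an adhesion molecule, at 5.31 ± 3.07 RPKM in the PVN and 0.922 ± 0.463 RPKM in the ARC. The endothelial transcription factor Sox18 was at 7.50 ± 2.01 and 2.59 ± 1.94 RPKM, and Pltp at 24.2 ± 5.61 and 10.3 ± 4.91 RPKM. Of 14 mural cell genes 9 differed and 7 of these were highest in the PVN. Among them Rgs5, a pericyte marker, was at 94.5 ± 13.6 RPKM in the PVN and 36.4 ± 4.42 RPKM in the ARC, and Atp13a5 at 7.10 ± 2.97 and 1.56 ± 0.95 RPKM. Of 21 other barrier transporters 16 differed and 13 were highest in the PVN, led by the organic anion carriers Slc22a8 (8.22 ± 2.49 RPKM in the PVN and 2.76 ± 0.926 in the ARC) and Slco1c1 (14.0 ± 2.96 and 5.48 ± 1.795).

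The ligands and receptors of vessel growth were mixed. Over all genes 18.7% differed between nuclei, and 5.1% differed and were highest in the PVN. Of 12 ligands 5 differed between nuclei and 3 were highest in the PVN, namely Pgf at 18.4 ± 9.30 RPKM in the PVN and 1.75 ± 1.19 in the ARC, Angpt1, the ligand of Tek, at 11.8 ± 3.75 and 3.43 ± 0.898, and Vegfa at 15.4 ± 2.78 and 7.13 ± 2.30. Pgf and Vegfa are ligands of Flt1. Of 20 receptors and targets 10 differed and 5 were highest in the PVN, with Apcdd1, a Wnt target of the barrier endothelium, at 5.84 ± 2.16 RPKM in the PVN and 1.33 ± 0.435 in the ARC. Of 13 tight and adherens junction genes, many of them shared with other cells, 2 differed, and Lsr, a tricellular junction protein, was at 2.82 ± 1.11 RPKM in the PVN and 0.733 ± 0.401 in the ARC. Of 8 caveolae and transcytosis genes 4 differed, with Cav1 highest in the PVN (4.01 ± 1.31 RPKM against 1.89 ± 0.677 in the ARC). Plvap, the diaphragm protein of fenestrated capillaries, was highest in the DMH, at 2.42 ± 1.14 RPKM, against 1.37 ± 1.08 in the ARC and 1.08 ± 0.760 in the PVN, all low levels.

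Markers of other cells differed between the nuclei as well, but not in the same order. The shares over all genes were again 18.7%, and 5.1% with the highest level in the PVN. Of 11 astrocyte markers 9 differed and 0 of these were highest in the PVN, of 10 oligodendrocyte markers 9 and 0, of 11 microglial and macrophage markers 3 and 0, and of 11 neuronal markers 11 and 2. The summed astrocyte list ranged from 454 to 556 RPKM over the PVN libraries and from 408 to 505 RPKM over the ARC libraries. The collagens Col1a1 and Col3a1 of fibroblasts averaged 0.54 and 0.33 RPKM over all libraries. Summed over the 10 genes, the PVN libraries ranged from 135 to 203 RPKM and the ARC libraries from 64.5 to 114 RPKM, without overlap.

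**Figure D4:**
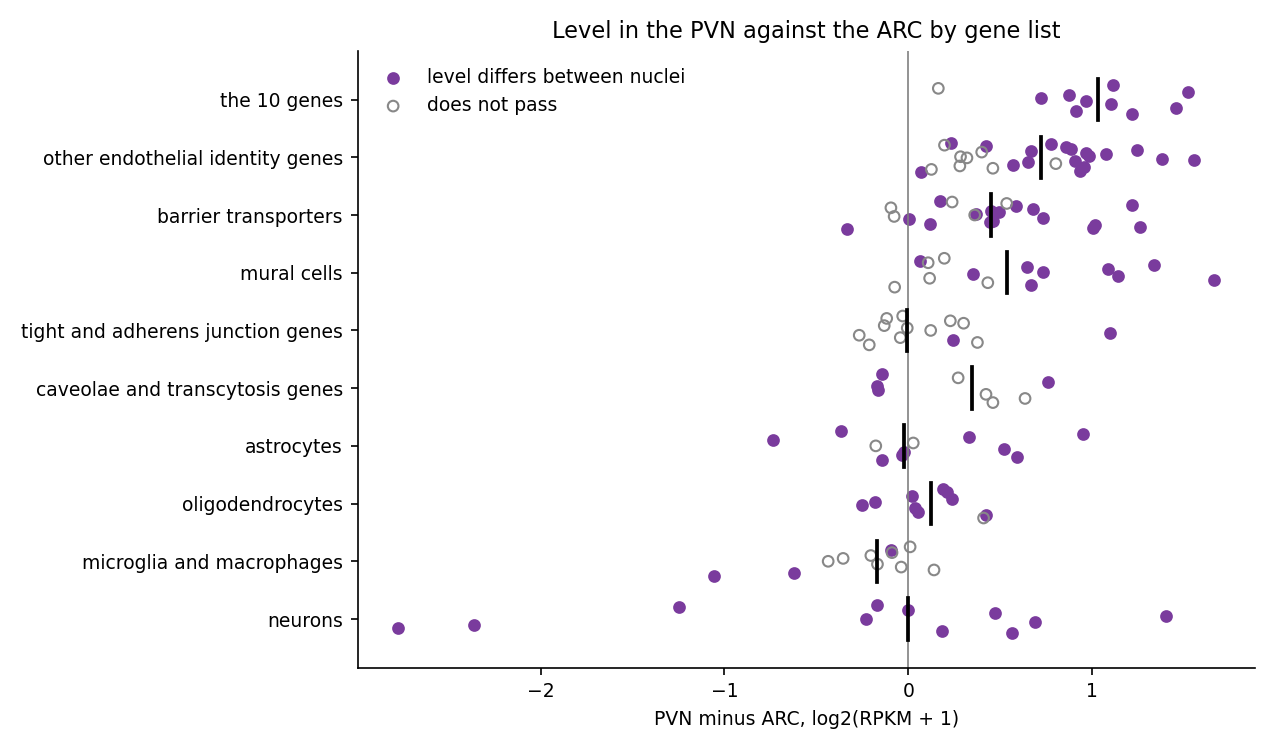
Difference between the PVN and the ARC in mean log2(RPKM + 1) for each tested gene of 10 lists; filled points are genes whose level differed between the 4 nuclei (limma adjusted P under 0.1), open points did not pass, and bars mark list medians. The 10 genes center at 1.03 and the further endothelial genes at 0.72, while neurons and astrocytes center near 0.

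Within groups the 10 genes varied almost separately. After the group means were subtracted, the Pearson correlation of Mfsd2a with the other 9 genes over 42 libraries ran from -0.32 for Pecam1 to 0.33 for Flt1, and was 0.03 for Slc2a1. The non-member genes most like Mfsd2a among 11909 genes of at least 5 RPKM were Lrp8 (0.68), Ece2 (0.68), Ccdc50 (0.65), Crkl (0.62) and Zswim1 (0.62). Each of the other 9 genes correlated with the mean of the remaining 8 at -0.13 to 0.44, the highest being Slco1a4. The genes most like the mean of these 9 were Gm26788 (0.74), Trnp1 (0.63), Ddhd1 (0.59), Rnf11 (0.59) and Slc25a22 (0.58). These are the highest of many correlations and are given as a description, since the libraries differ in depth and some share a mouse.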

How the data were processed

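The deposited values were RPKM, which the authors computed from unstranded single-end reads of laser-captured, NuGEN-amplified RNA. The submitters' processing notes name CASAVA 1.7, TopHat2 2.0.11, Cufflinks 2.2.1, edgeR and limma, and build GRCm38. The deposited RPKM appear to carry a small added count and to have their batch means removed, which was inferred from recurring lowest values. Batches (10, 16 and 16 libraries) and depths were inferred from these and are estimates that rest on annotated exon lengths. Symbols and positions came from GENCODE M21, and upstream sequences from RefSeq (GRCm38.p6), which held a window for 9 of the 10 genes.

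Values were transformed to log2(RPKM + 1), and 33579 genes with at least 1 RPKM in at least 4 libraries were kept. A mean per group was fitted to all 42 libraries with limma 3.58.1 (R 4.3.3), with two-sided tests and Benjamini-Hochberg adjustment over all genes. No batch term was fitted, and the DMH had 0 fasted libraries in batch 1. Whether a removal of batch means shifted the DMH fasting changes or the P values was not tested. The study fitted counts, but the deposited values are not counts. Single values were tested with two-sided exact permutation tests (scipy 1.17.1, 2 times the smaller tail). Named were the 10 genes, up to 3 passing genes of each list by size of change (or the largest change where none passed), and the 5 genes most like Mfsd2a and the mean of the other 9. Markers cited for cell checks and Cdh5 and Kdr as list examples were named outside this rule. The members and lists were chosen with earlier results of these data known. Alternatives varied the pseudocount, filter, scaling, library weights, replicate block, single batches and single libraries.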

Additional observations from a re-analysis of the deposited data

Results flagged for a closer look

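In 80 sets (10 genes in 8 groups), 8 held a library far from the others of its group by Dixon's test, where chance gives about 1 in 20, or 4. Mfsd2a was 29.9 RPKM in VMH-Fast library 2 against 11.9 to 17.8 RPKM in the others, and the VMH difference was 1.27 with it and 1.09 without it. Cldn5 was 7.90 RPKM in VMH-Fed library 6 against 1.87 to 4.02 RPKM, and 16.9 RPKM in DMH-Fast library 2 against 4.33 to 5.23 RPKM. Without the latter library the DMH fasting change of Cldn5 was -0.56 in place of -0.15. Flt1 was 5.39 RPKM in ARC-Fast library 1 against 3.65 to 4.09 RPKM. Pecam1 was 1.24 RPKM in VMH-Fed library 3 against 3.51 to 4.13 RPKM. Slco1a4 was 30.6 RPKM in PVN-Fed library 1 against 17.2 to 19.99 RPKM. Ly6c1 was 47.9 RPKM in VMH-Fed library 1 against 10.3 to 24.0 RPKM, and the VMH fasting change was -0.53 with it and -0.22 without it. Tek was 6.61 RPKM in PVN-Fast library 2 against 2.07 to 2.98 RPKM. The 8 values came from 8 different libraries. No fasting change differed between the ARC, DMH and PVN by the test of that difference.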

How the results depend on the processing

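Over 26 results and 723 alternatives, 674 left the call as it was and 2 reversed a direction, namely the PVN fasting changes of Mfsd2a (-1.004) and Slc2a1 (-0.0342) within batch 1, neither of them a call. The average fasting change of Mfsd2a over the ARC, DMH and PVN did not pass with a pseudocount of 0.1 (0.85, adjusted P = 0.108). With a replicate block it was 0.77 (adjusted P = 0.130), also not past the threshold, and no other limma call among these results was lost with that block. Same-numbered libraries did not vary together (median correlation -0.031 between nuclei and -0.054 between states). This cannot decide whether the numbers pair samples across nuclei. Same numbers can fall in different batches, such as ARC fed 2 in batch 2 and VMH fed 2 in batch 1, and fed and fasted libraries cannot share a mouse. Leaving out single libraries gave 0.717 to 0.877. With array weights 1 of the genes described here passed in the DMH and 1 in the PVN, Slc2a1 in both (adjusted P = 0.0754 and 0.0231). Array weights also raised the number passing over all 33579 genes, from 8 to 56 in the DMH and from 24 to 141 in the PVN. That number rose from 19 to 40 in the ARC and fell from 44 to 16 in the VMH. Without 1 library the count among the genes described here was 0 to 1 in the DMH, and stayed at 0 in the ARC and PVN. The VMH change of Mfsd2a was 0.992 to 1.45 without 1 library. The PVN change of Mfsd2a over the other 9 genes was 0.256 to 0.692 without 1 library, and past 0.05 without PVN fasted library 1 alone. The count of genes that differ between nuclei was 9 in every fit but those of the fed groups alone (7), the fasted groups alone (8), batch 2 alone (3) and batch 3 alone (6), the last pair with fewer libraries. The single-batch counts are given without a share over all genes. Within batches 2 and 3 the average change of Mfsd2a was 1.18 and 0.79, not past the threshold. In batch 1, with 0 fasted DMH libraries, what needs the DMH could not be fitted. The causes were not tested. Depth limits Tek and Cldn5 most.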
